A study of Mus musculus with 3 samples.

Results

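The heat shock proteins and DnaJ chaperones were examined in single-cell transcriptomes of the mouse heart. The set held every gene in the deposited gene list whose symbol starts with Hsp or Dnaj, except Hspg2 and predicted genes, which gave 75 of 32285 genes. By role these were 3 Hsp90 genes, 2 inducible Hsp70 genes, 9 other Hsp70 genes, 4 genes of the Hsp110 and nucleotide exchange group, 2 mitochondrial chaperonins, 7 small heat shock proteins and 45 J-domain genes (4 of class A, 13 of class B and 28 of class C). The remaining 3 carry the name without one of these roles, among them Hspb11, a ciliary transport gene, and Hspbap1, which encodes a partner of a small heat shock protein.

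Hearts came from male mice of the C57/B6J strain that were wild type (WT) or carried a point mutation, Myh6-R404Q in the alpha myosin heavy chain of heart muscle or Prkag2-p.R299Q in a regulatory subunit of AMP-activated protein kinase. Cells were freed with collagenase and taken as total cells, with no enrichment for a cell type named in the labels. There was 1 library per genotype. Age, zygosity and the number of animals in a library are unstated in the sources used here. No test between genotypes was therefore possible, no p-value is given, and every 95% interval covers counting error only. Both mutants were compared with the same WT library, so that an unusual WT level enters both ratios in the same direction.

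Chaperones bind proteins that have lost or not yet reached their fold. Hsp70 holds an unfolded stretch, J-domain proteins deliver clients to it and trigger its ATP hydrolysis, and the Hsp110 proteins release the nucleotide so that the cycle can begin again. Hsp90 acts later, on clients such as kinases and steroid receptors, and the small heat shock proteins hold unfolded proteins without using ATP. In heart muscle the small heat shock proteins and their partner Bag3 are known for protecting the contractile apparatus. Heat shock factor 1 (HSF1) switches on a subset of these genes during protein stress by binding heat shock elements, which are repeats of the unit GAA in alternating orientation. Handling and warm enzymatic digestion of tissue are also known to induce heat shock and immediate early genes.

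Kept cells numbered 14851 in WT, 10498 in the Myh6-R404Q library and 6839 in the Prkag2-p.R299Q library, with medians of 1416, 1850 and 2347 transcript counts (unique molecular identifiers, UMIs) per cell. The cells used for Myh6-R404Q were the 12662 barcodes of its matrix that were not already in the other matrices, an assignment by elimination. Between 28 and 51 barcode sequences were shared by any pair of libraries. Clusters named from marker genes gave 8 classes with at least 200 cells in each library. They were capillary and general endothelial-like, cardiomyocyte-like, endocardial-like, fibroblast-like, lymphatic endothelial-like, macrophage-like, mesothelial-like and pericyte-like cells. Their markers were highest in their own class for 6 of 9, 6 of 9, 6 of 7, 9 of 10, 6 of 7, 10 of 10, 9 of 9 and 8 of 8 genes, in that order. The cardiomyocyte markers Actc1, Tnni3 and Myl2 were higher in another class, so muscle transcripts were not confined to the class that bears the name. Levels are given as counts per 1000000 UMIs of a class (CPM), summed over its cells in 1 library. They come from transcript ends and are compared for 1 gene between libraries or classes, not between genes.

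Of the 75 genes, 50 had a mean of at least 20 CPM over the libraries in at least 1 class, 35 had it in all 8 classes and 25 in none. Every member had at least 1 UMI, and 9 had under 100 UMIs in the 3 libraries together. This filter left 345 of 600 pairs of gene and class. A pair was counted as lower or higher when its ratio, with 1 CPM added to both values, passed 1.5-fold.

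Members stood below WT more often than above it in both mutant libraries. In Myh6-R404Q 48 of the 345 pairs (13.9%) were at least 1.5 times lower and 7 were at least 1.5 times higher. Over all genes and classes 4.91% of pairs were that much lower and 5.62% that much higher. In Prkag2-p.R299Q 60 pairs (17.4%) were lower and 8 were higher, against 5.89% and 4.71% of the pairs of all genes. A gene can count in up to 8 classes of 1 library, so the pairs are not independent. Hsph1, Hsp90aa1, Hspa4l, Hspb6 and Dnaja1 gave 8, 7, 6, 5 and 4 of the 48 lower pairs in Myh6-R404Q. Hspb6 gave 7 and Hspa4l 6 of the 60 in Prkag2-p.R299Q. The median log2 ratio of the members was -0.12 in the Myh6-R404Q library and -0.15 in the Prkag2-p.R299Q library, where the median of all genes was 0.03 and -0.00. Both medians were close to 0, so most members lay near their WT level and the excess came from a minority.

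That minority was uneven between roles, as the plot of shares by role group shows. In Myh6-R404Q the lower pairs were 14 of 24 for the Hsp110 and exchange group, 10 of 24 for Hsp90, 11 of 32 for the small heat shock proteins, 4 of 26 for J-domain class A, 4 of 41 for the other Hsp70 genes and 2 of 16 for the chaperonins. In Prkag2-p.R299Q they were 11 of 24, 8 of 24, 17 of 32, 2 of 26, 9 of 41 and 5 of 16 in the same order. The J-domain proteins of class C, the most varied group, gave only 1 lower and 6 higher pairs of 129 in the Myh6-R404Q library and 2 lower and 4 higher in the Prkag2-p.R299Q library. Class B gave 2 and 5 lower pairs of 47. Among pairs of all genes 4.91% and 5.89% were lower, and class B in Myh6-R404Q and class A in Prkag2-p.R299Q were near that share. The 12 members listed as known HSF1 targets gave 24 lower and 0 higher of 72 pairs in the Myh6-R404Q library and 22 lower and 1 higher in the Prkag2-p.R299Q library. That list was drawn up with earlier results of these data known.

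**Figure D1:**
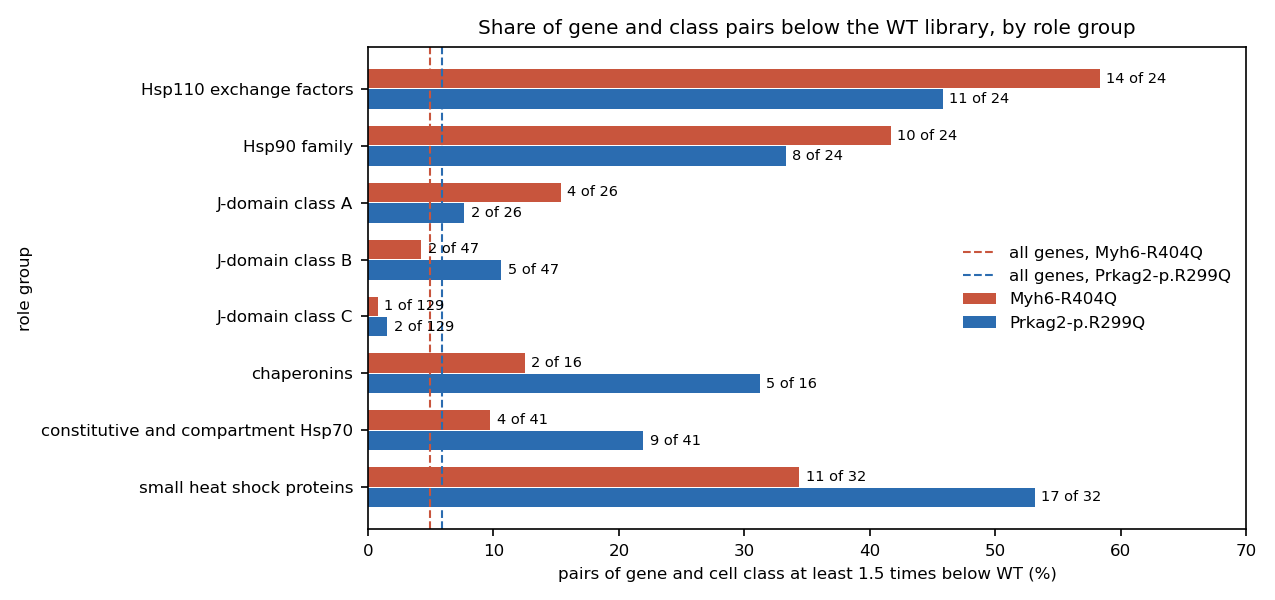
Bars give the percentage of gene and class pairs at least 1.5 times below WT (horizontal axis) for each role group (vertical axis) in the Myh6-R404Q (red) and Prkag2-p.R299Q (blue) libraries, with counts beside them, and dashed lines give the percentage over all genes. The Hsp110 group reached 14 of 24 pairs in the Myh6-R404Q library and the small heat shock proteins 17 of 32 in the Prkag2-p.R299Q library, whereas J-domain class C had 1 and 2 of 129.

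The count also varied between cell classes. In fibroblast-like cells 11 of 44 members past the filter were lower in the Myh6-R404Q library and 10 in the Prkag2-p.R299Q library, where 3.37% and 4.2% of all genes were. In macrophage-like cells 11 and 10 of 43 were lower, against 6.55% and 6.97% of all genes. In capillary and general endothelial-like cells 4 and 8 of 43 were lower, against 3.38% and 3.43%. Fibroblast-like and macrophage-like cells thus held the most lower members in Myh6-R404Q. Cardiomyocyte-like cells, the class in which Myh6 acts, had 4 and 3 of 37 lower members, against 2.44% and 1.94% of all genes. Mesothelial-like cells had 4 and 4 of 45, against 3.71% and 3.37%. Pericyte-like cells had 6 and 8 of 46, against 6.46% and 7.21%. Endocardial-like cells had 3 and 7 of 43 lower members, against 6.17% and 9.77% of all genes, and lymphatic endothelial-like cells 5 and 10 of 44, against 6.83% and 9.6%. The 3 lower members in endocardial-like cells of Myh6-R404Q are near the share of all genes.

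**Figure D2:**
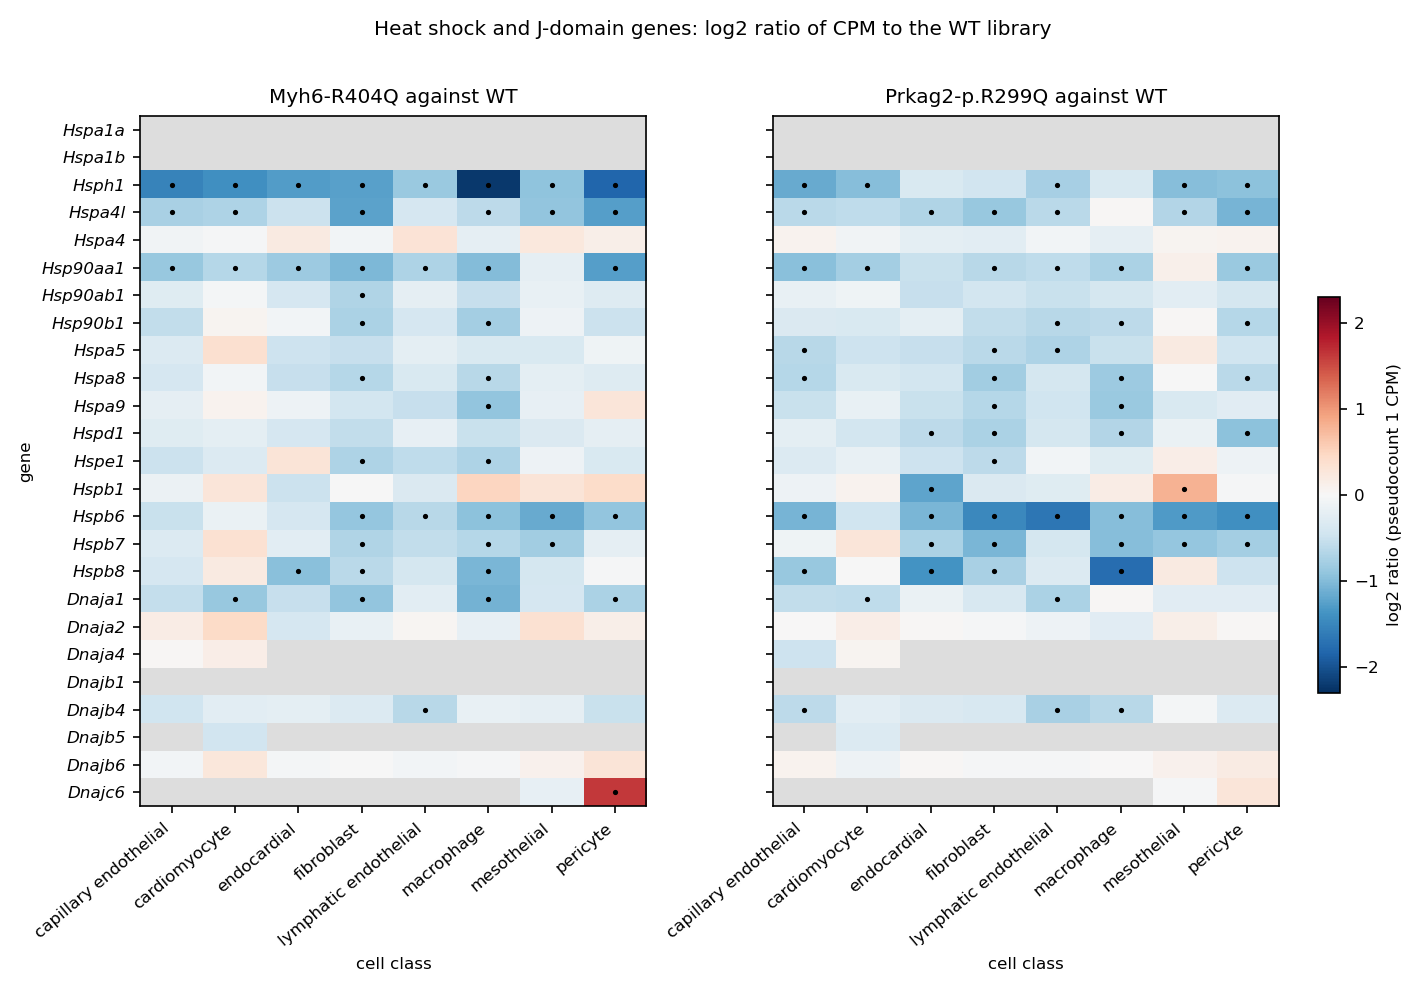
Colours give the log2 ratio of CPM to WT (1 CPM added to both) for 25 genes (rows) in 8 cell classes (columns), in Myh6-R404Q on the left and Prkag2-p.R299Q on the right, with dots on ratios past 1.5-fold and grey where the mean was under 20 CPM. The row of Hsph1 is blue in all 8 classes of both panels, Dnajb6 is pale throughout, and Dnajc6 in pericyte-like cells of Myh6-R404Q is the darkest red.

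Hsph1 encodes Hsp105, the inducible Hsp110 protein that exchanges nucleotide on Hsp70, and lies at chromosome 5, 149614287 to 149636376, minus strand, mm10. It was below WT in all 8 classes of both mutants, past 1.5-fold in 8 classes of the Myh6-R404Q library and 5 of the Prkag2-p.R299Q library. In macrophage-like cells Hsph1 was at 98.8 CPM in WT, 20.5 in the Myh6-R404Q library and 77.5 in the Prkag2-p.R299Q library. The Myh6-R404Q level was 0.207 times WT (0.139 to 0.3) and that of Prkag2-p.R299Q 0.785 times (0.63 to 0.976), so only the former lay far below. In fibroblast-like cells Hsph1 was at 94.4, 38.9 and 69.1 CPM, and in pericyte-like cells at 102.5, 28.3 and 52.9 CPM. In capillary and general endothelial-like cells it was at 86.5, 29.2 and 38.2 CPM, which left both mutants below the interval of WT. In cardiomyocyte-like cells Hsph1 was at 44.5, 16.2 and 22.2 CPM, or 0.363 (0.294 to 0.445) and 0.499 (0.419 to 0.592) times WT. Endocardial-like cells gave 106.5, 43.4 and 83.4 CPM, lymphatic endothelial-like cells 111.8, 61.5 and 65.8, and mesothelial-like cells 54.6, 28.1 and 27.1. WT was the highest library in each of the 8 classes. With cells thinned to 1000 UMIs this changed in 1 place, where Hsph1 in endocardial-like cells of Prkag2-p.R299Q had a log2 ratio of 0.17 in place of -0.35. Thinning left out all cells under 1000 UMIs. In capillary and general endothelial-like cells these were 1574 of 3365 in WT, 643 of 2141 in Myh6-R404Q and 238 of 1044 in Prkag2-p.R299Q. The step thus altered the set of cells as well as the depth. The order of the mutants differed, with Myh6-R404Q the lower in 7 classes and Prkag2-p.R299Q the lower in mesothelial-like cells. WT was also highest and Myh6-R404Q lowest inside a pair of the clusters that make up the fibroblast-like class. In the largest, Hsph1 was at 98 CPM in WT, 36.2 in the Myh6-R404Q library and 73.7 in the Prkag2-p.R299Q library. In a smaller one it was at 83.5, 34.6 and 74.9 CPM. Clusters of the other classes are not given here.

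Its relatives divided. Hspa4l, an Hsp110 protein also known as Apg-1, was at least 1.5 times below WT in 6 classes of each mutant. In fibroblast-like cells Hspa4l was at 56.3 CPM in WT, 23.3 in the Myh6-R404Q library and 30.5 in the Prkag2-p.R299Q library, and in cardiomyocyte-like cells at 79.1, 48.2 and 52.4 CPM. In macrophage-like cells it was at 96, 63.2 and 98 CPM, where only Myh6-R404Q lay below WT. Hspa4, the broadly expressed Hsp110 protein, stayed within 1.5-fold of WT in all 8 classes of both mutants. In fibroblast-like cells Hspa4 was at 139.7, 134.3 and 118.6 CPM. Hspbp1, an exchange factor of another fold, was under the filter in every class.

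**Figure D3:**
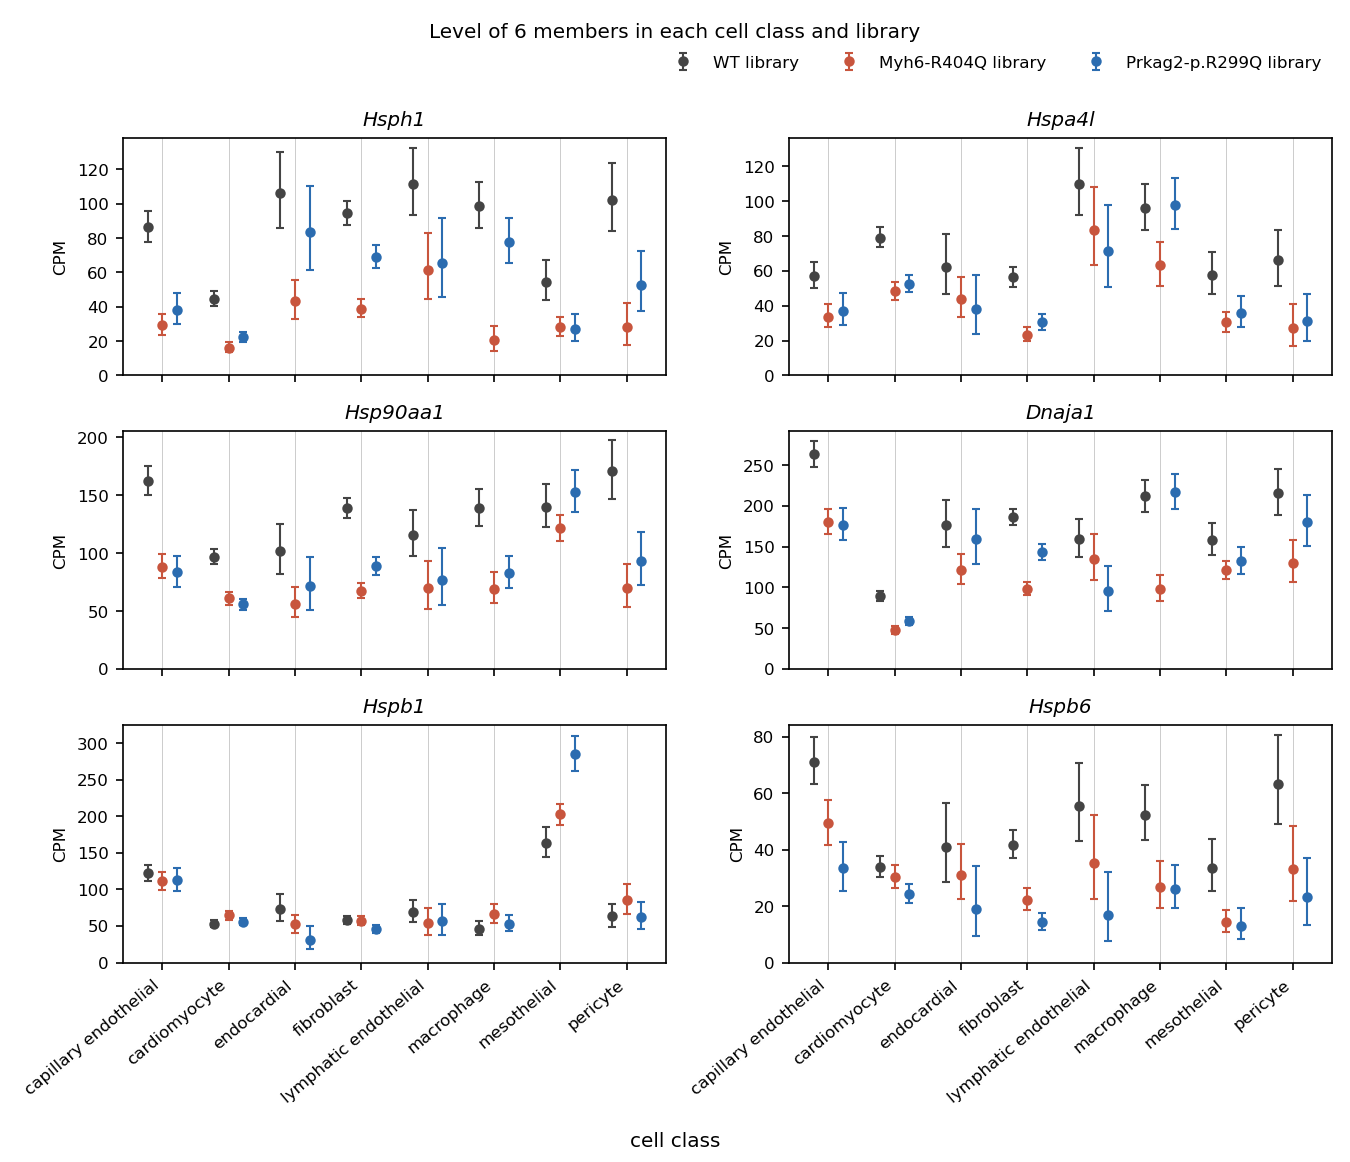
Points give CPM (vertical axis, from 0) of 6 genes in each cell class (horizontal axis) in the WT (grey), Myh6-R404Q (red) and Prkag2-p.R299Q (blue) libraries, and bars give exact 95% Poisson intervals of the counts. Hsph1 is highest in WT in all 8 classes, Hspb1 stands out in mesothelial-like cells, where it is 163.7, 202.6 and 285.4 CPM, and Hspb6 is lowest in Prkag2-p.R299Q in all 8.

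The DNA just before the start of several of these genes carries heat shock elements, and 5 stretches are shown here because they belong to members with contrasting levels. Sequences were taken from RefSeq on GRCm38.p6 (mm10), in windows of 250 bases before to 50 after each annotated start. Of the 75 genes, 60 had a window. The long element was spelled as the triplets TTC, GAA and TTC, or GAA, TTC and GAA, with any 2 bases between neighbours. The short element was TTC then GAA, or GAA then TTC, with any 2 bases between. Together these spellings cover both strands, and every long element contains short ones. The long element was found in 4 of the 60 genes (6.67%) and in 179 of 27025 genes with a window (0.662%). The short one was found in 16 of the 60 (26.7%) and in 17% of all genes. A match describes the letters and does not show binding. Elements with a mismatch or another spacing were not searched, so a missing match does not show that an element is absent. Each line gives the 250 bases before the start, 5′ to 3′ on the strand of the gene, with matches in capitals. Where a gene has more than 1 annotated start, 1 is shown.
Hsph1: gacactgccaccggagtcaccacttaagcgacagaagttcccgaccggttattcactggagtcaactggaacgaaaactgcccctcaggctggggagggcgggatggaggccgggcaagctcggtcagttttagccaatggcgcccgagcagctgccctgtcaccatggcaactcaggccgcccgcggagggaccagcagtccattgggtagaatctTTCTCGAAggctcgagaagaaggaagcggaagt
Hspe1: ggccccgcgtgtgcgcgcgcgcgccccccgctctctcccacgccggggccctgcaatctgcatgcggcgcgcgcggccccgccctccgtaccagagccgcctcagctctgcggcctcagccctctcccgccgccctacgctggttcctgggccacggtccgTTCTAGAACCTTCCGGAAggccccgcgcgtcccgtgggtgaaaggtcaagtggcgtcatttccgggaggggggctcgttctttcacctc
Dnajb6: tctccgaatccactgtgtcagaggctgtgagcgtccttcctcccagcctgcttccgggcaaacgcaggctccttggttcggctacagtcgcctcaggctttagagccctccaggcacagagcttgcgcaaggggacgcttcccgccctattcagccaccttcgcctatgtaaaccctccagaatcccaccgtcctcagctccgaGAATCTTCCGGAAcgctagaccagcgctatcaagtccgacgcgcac
Dnaja1: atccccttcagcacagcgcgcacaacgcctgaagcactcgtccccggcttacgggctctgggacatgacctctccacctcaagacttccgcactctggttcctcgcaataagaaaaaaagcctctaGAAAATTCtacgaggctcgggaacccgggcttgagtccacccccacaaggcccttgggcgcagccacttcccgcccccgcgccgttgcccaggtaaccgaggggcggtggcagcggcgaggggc
Hspa1a: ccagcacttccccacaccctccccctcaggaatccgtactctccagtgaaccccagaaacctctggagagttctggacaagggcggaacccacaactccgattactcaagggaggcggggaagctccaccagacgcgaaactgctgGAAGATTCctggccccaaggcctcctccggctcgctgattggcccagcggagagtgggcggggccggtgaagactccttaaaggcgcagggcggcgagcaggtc
The stretches lie at chr5:149636337-149636586 (minus strand), chr1:55087898-55088147 (plus), chr5:29735648-29735897 (plus), chr4:40722218-40722467 (plus) and chr17:34972157-34972406 (minus). Hsph1 shows a short element that begins 33 bases before this start, and its long element begins 36 bases after it, outside the printed stretch. Hspe1 has overlapping long elements that begin 89 and 84 bases before its start, in the segment it shares with Hspd1, which is transcribed in the opposite direction. Dnajb6 has a long element that begins 46 bases before its start. Dnaja1 and Hspa1a have a short element each, 124 and 104 bases before the start. The stretch of Hspa1b differs from that of Hspa1a in 3 of 250 bases.

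Of the 4 members with the long element, Hsph1 was below WT in all 8 classes of both mutants, Hspd1 also in all 8, and Hspe1 in 7, while Dnajb6 stayed near WT. Dnajb6, a class B J-domain protein known for blocking aggregation, carries the element, yet its log2 ratio to WT lay between -0.06 and 0.30 in the Myh6-R404Q library and between -0.11 and 0.19 in the Prkag2-p.R299Q library. In fibroblast-like cells Dnajb6 was at 161.4 CPM in WT, 160.3 in the Myh6-R404Q library and 157.6 in the Prkag2-p.R299Q library. Hspe1 and Hspd1, the lid and barrel of the mitochondrial chaperonin, were lower by modest amounts. Hspd1 was below WT in all 8 classes of both mutants but past 1.5-fold in 0 classes of the Myh6-R404Q library and 4 of the Prkag2-p.R299Q library. With cells thinned to 1000 UMIs the sign turned in cardiomyocyte-like cells, where the log2 ratio of Hspd1 went from -0.23 to 0.12 and from -0.43 to 0.31. In pericyte-like cells Hspd1 was at 150.4, 130.4 and 77.3 CPM, so that Prkag2-p.R299Q alone was low there. In fibroblast-like cells it was at 116.9, 78.5 and 70.6 CPM. Hspe1 in fibroblast-like cells was at 59.8, 36 and 39.1 CPM, or 0.603 (0.509 to 0.713) and 0.655 (0.555 to 0.77) times WT.

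Among the Hsp90 genes the stress-inducible cytosolic form, Hsp90aa1, stood lowest against WT. Hsp90aa1 was at least 1.5 times lower in 7 classes of the Myh6-R404Q library and 5 of the Prkag2-p.R299Q library. In fibroblast-like cells Hsp90aa1 was at 138.6 CPM in WT, 67.5 in the Myh6-R404Q library and 88.5 in the Prkag2-p.R299Q library, in cardiomyocyte-like cells at 96.6, 61 and 55.7, and in pericyte-like cells at 170.6, 70.1 and 93.5. Mesothelial-like cells were the exception, at 140.2, 121.7 and 152.9 CPM with Prkag2-p.R299Q the highest library. The constitutive cytosolic form, Hsp90ab1, was past 1.5-fold in 1 class only, the fibroblast-like cells of Myh6-R404Q, at 320.2, 197.4 and 237.4 CPM. In cardiomyocyte-like cells Hsp90ab1 was at 180.1, 174.3 and 167.6 CPM. Over the alternatives given at the end, its log2 ratio there ranged from -0.11 to 0.16 in Myh6-R404Q and from -0.26 to 0.4 in Prkag2-p.R299Q, so the sign turned. That of Hsp90aa1 in the same cells of Prkag2-p.R299Q ranged from -0.8 to -0.41, the latter within 1.5-fold. Hsp90b1, the Hsp90 of the endoplasmic reticulum, was lower in fibroblast-like and macrophage-like cells of the Myh6-R404Q library and in lymphatic endothelial-like, macrophage-like and pericyte-like cells of the Prkag2-p.R299Q library. In macrophage-like cells Hsp90b1 was at 314.2, 182.2 and 207.6 CPM. A gene model on the same strand overlaps Hsp90b1, so some of its reads may have been assigned elsewhere.

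The inducible Hsp70 genes were sparse. Hspa1a and Hspa1b encode nearly the same protein from neighbouring loci on chromosome 17, and reads may be split between them, so they were summed. Over all kept cells the sum was 17.1 CPM (15.6 to 18.7) in WT, 4.74 (3.93 to 5.65) in the Myh6-R404Q library and 7.80 (6.70 to 9.04) in the Prkag2-p.R299Q library. These were 0.277 (0.225 to 0.339) and 0.457 (0.382 to 0.544) times WT, and the 3 intervals did not overlap. In macrophage-like cells the sum was 36.3, 8.06 and 18.8 CPM, and in capillary and general endothelial-like cells 26.7, 5.72 and 9.82 CPM. In fibroblast-like cells it was 17.4, 5.95 and 10.9 CPM. In cardiomyocyte-like cells it was 5.24, 2.0 and 1.56 CPM, from 49, 15 and 14 UMIs. In each of the 8 classes WT was the highest library. Neither gene reached the filter in any class, so they are in none of the counts above. Dnajb1, the partner J-domain protein of inducible Hsp70, was also under the filter, at 14.1, 8.46 and 10.1 CPM over all kept cells.

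Hspa8, the constitutive cytosolic Hsp70, was below WT in all 8 classes of both mutants and past 1.5-fold in 2 of the Myh6-R404Q library and 4 of the Prkag2-p.R299Q library. The smallest of these ratios, in cardiomyocyte-like cells of Myh6-R404Q and mesothelial-like cells of Prkag2-p.R299Q, were -0.06 and -0.01 on the log2 scale and turned to 0.03 and 0.17 with cells thinned to 1000 UMIs. In macrophage-like cells Hspa8 was at 354.2 CPM in WT, 227.4 in the Myh6-R404Q library and 197.1 in the Prkag2-p.R299Q library, and in mesothelial-like cells at 271, 231.5 and 268.7. The former class separated the mutants from WT and the latter did not separate Prkag2-p.R299Q from it. Hspa5, the Hsp70 of the endoplasmic reticulum also called BiP, differed between the mutants in cardiomyocyte-like cells, at 75.5, 97.3 and 54.1 CPM. There it was 1.29 times WT (1.16 to 1.43) in the Myh6-R404Q library and 0.717 times (0.638 to 0.806) in the Prkag2-p.R299Q library. The make-up of this class differed between libraries: 1 of its clusters, led by Nppa, Acta1 and Nppb, held 20 of 2173 cells in WT, 74 of 1312 in the Myh6-R404Q library and 113 of 1140 in the Prkag2-p.R299Q library. With clusters weighted to their WT shares, the log2 ratio of Hspa5 was 0.04 in Myh6-R404Q, against 0.36, and -0.60 in Prkag2-p.R299Q, against -0.47. Over all the alternatives it ranged from -0.02 to 0.44 in Myh6-R404Q and from -0.60 to -0.09 in Prkag2-p.R299Q. The size of this difference between the mutants thus depended on the processing. Hspa5 was past 1.5-fold in 0 classes of the Myh6-R404Q library and in 3 of the Prkag2-p.R299Q library. Hspa9, the mitochondrial Hsp70, was at 182.8, 97.3 and 101.3 CPM in macrophage-like cells and at 175, 184.1 and 156 CPM in cardiomyocyte-like cells. Hspa14, a ribosome-associated Hsp70, went the other way in pericyte-like cells, at 23, 40.6 and 42 CPM, with ratios of 1.76 (1.01 to 3.12) and 1.83 (1.04 to 3.25).

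The small heat shock proteins were the group with most lower pairs in Prkag2-p.R299Q. Hspb6, also called Hsp20 and known in muscle as a target of cyclic nucleotide signalling, was at least 1.5 times lower in 5 classes of the Myh6-R404Q library and 7 of the Prkag2-p.R299Q library. In fibroblast-like cells Hspb6 was at 41.7 CPM in WT, 22.1 in the Myh6-R404Q library and 14.3 in the Prkag2-p.R299Q library, in lymphatic endothelial-like cells at 55.5, 35.2 and 16.9, and in cardiomyocyte-like cells at 33.9, 30.3 and 24.3. With cells thinned to 1000 UMIs the log2 ratio of Hspb6 in lymphatic endothelial-like cells of Myh6-R404Q was -0.11, against -0.64 unthinned, which ends that call. Prkag2-p.R299Q was the lowest library in all 8 classes. Other genes on the opposite strand overlap Hspb6. Hspb7, the cardiovascular small heat shock protein, was past 1.5-fold below WT in 3 and 5 classes, none of them the cardiomyocyte-like one. In fibroblast-like cells Hspb7 was at 111.3, 68.2 and 52.9 CPM, while in cardiomyocyte-like cells it was at 118.3, 151.5 and 144.3 CPM, or 1.28 (1.18 to 1.39) and 1.22 (1.13 to 1.32) times WT. With the clusters of the cardiomyocyte-like class weighted to their WT shares the log2 ratios of Hspb7 were 0.22 and 0.30, against 0.35 and 0.28. Hspb8, the partner of Bag3 in chaperone-assisted autophagy, was past 1.5-fold below WT in 3 and 4 classes, again without the cardiomyocyte-like one. In macrophage-like cells Hspb8 was at 45, 21.1 and 12.7 CPM, and in cardiomyocyte-like cells at 61.1, 70.9 and 61 CPM.

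Muscle transcripts outside the muscle class summed to less in Prkag2-p.R299Q, by amounts that varied between classes, and were mixed in Myh6-R404Q. A list of 15 abundant cardiomyocyte genes, none at 0 in any class or library, summed to 13550 CPM in WT, 11170 in the Myh6-R404Q library and 7340 in the Prkag2-p.R299Q library in fibroblast-like cells, and to 16400, 12720 and 8789 CPM in lymphatic endothelial-like cells. Over the 7 other classes than cardiomyocyte-like cells the sum was 0.722 to 1.24 times WT in the Myh6-R404Q library and 0.536 to 0.998 times in the Prkag2-p.R299Q library. Of 120 pairs of these genes with all 8 classes, the muscle class included, 14 were at least 1.5 times lower and 5 higher in Myh6-R404Q. Ryr2 alone gave 8 of the lower ones. In Prkag2-p.R299Q 61 were lower and 0 higher. Among pairs of all genes 4.91% were lower and 5.62% higher in Myh6-R404Q, and 5.89% and 4.71% in Prkag2-p.R299Q. In fibroblast-like cells Mb, the myoglobin gene, was at 811.8, 661.3 and 390.1 CPM, and Mybpc3, of the thick filament, at 225.1, 166.6 and 98.7 CPM. For every 100 UMIs of Myh6, Hspb7 had 0.921 in WT, 1.23 in the Myh6-R404Q library and 1.01 in the Prkag2-p.R299Q library in cardiomyocyte-like cells, and 4.83, 3.28 and 3.87 in fibroblast-like cells. The ratio was therefore higher in fibroblast-like cells than in the muscle class in every library. This was not particular to Hspb7. Cryab, the alpha B crystallin gene, had 1.65, 2.47 and 1.75 in cardiomyocyte-like cells and 7.82, 8.19 and 8.17 in fibroblast-like cells. Hspb6 and Hspb7 had their highest mean levels in capillary and general endothelial-like cells, at 51.2 and 179.6 CPM. There Hspb6 was at 71 CPM in WT and 33.3 in Prkag2-p.R299Q. For every 100 UMIs of Myh6 in that class, Hspb6 had 1.21, 0.607 and 0.442 and Hspb7 3.33, 1.95 and 2.44. Both were thus lower against Myh6 there in both mutants. With mitochondrial and abundant cardiomyocyte genes left out of the class total, the log2 ratio of Hspb6 in fibroblast-like cells was -0.90 in the Myh6-R404Q library and -1.50 in the Prkag2-p.R299Q library, against -0.89 and -1.48 with them. The part of muscle transcripts in the lower levels of Hspb6, Hspb7 and Hspb8 outside muscle was not tested.

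Hspb1, also called Hsp25 in mice, was the small heat shock protein that departed from the others. It was highest in mesothelial-like cells, the lining of the outer surface of the heart, in every library. There Hspb1 was at 163.7 CPM in WT, 202.6 in the Myh6-R404Q library and 285.4 in the Prkag2-p.R299Q library, a ratio of 1.24 (1.07 to 1.43) and 1.74 (1.5 to 2.03). In endocardial-like cells, the inner lining, it was at 73.6, 52 and 31.3 CPM, with Prkag2-p.R299Q at 0.425 times WT (0.237 to 0.725). In cardiomyocyte-like cells it was at 53.1, 64.3 and 55.9 CPM. Hspb2, Hspb3 and Hspb9 were under the filter in every class.

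Of the J-domain proteins of class A, the classical partners of Hsp70, Dnaja1 was the one that was lower. Dnaja1 was at least 1.5 times below WT in 4 classes of the Myh6-R404Q library and 2 of the Prkag2-p.R299Q library. In macrophage-like cells Dnaja1 was at 211.8 CPM in WT, 98.5 in the Myh6-R404Q library and 216.5 in the Prkag2-p.R299Q library, and in fibroblast-like cells at 185.9, 98.1 and 143.5. Only Myh6-R404Q was low in macrophage-like cells, the same library as for Hsph1 there. In cardiomyocyte-like cells Dnaja1 was at 89.2, 48.1 and 58.8 CPM. Its log2 ratio there in Prkag2-p.R299Q ranged from -0.63 to -0.45 over the alternatives, the latter within 1.5-fold. Dnaja2, a close relative, stayed within 1.5-fold of WT in all 8 classes of both mutants and was highest in cardiomyocyte-like cells, at 158.1, 216 and 176.6 CPM. Dnaja3, the mitochondrial member, also stayed within 1.5-fold and was at 44.5, 40.1 and 41 CPM in fibroblast-like cells. Dnaja4 passed the filter in 2 classes and was at 33.3, 37.2 and 34.7 CPM in cardiomyocyte-like cells. Reads from the opposite strand gene that overlaps Dnaja1 cannot be told apart here unless the counting used strand, which the sources used here do not give.

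In class B, Dnajb4 and Dnajb5 were muscle-weighted. In cardiomyocyte-like cells Dnajb4 was at 219 CPM in WT, 185.9 in the Myh6-R404Q library and 185.3 in the Prkag2-p.R299Q library, and its mean there over libraries was 2.97 times that of the next class. Dnajb5 passed the filter in cardiomyocyte-like cells alone, at 31.4, 22.8 and 24.9 CPM, or 0.728 (0.599 to 0.882) and 0.794 (0.664 to 0.948) times WT. Both were thus below WT in muscle in both mutants, by less than 1.5-fold. With cells thinned to 1000 UMIs the log2 ratio of Dnajb5 in Myh6-R404Q was -1.19, against -0.44 unthinned, which is past 1.5-fold. Elsewhere Dnajb4 was past 1.5-fold in 1 class of the Myh6-R404Q library and 3 of the Prkag2-p.R299Q library, among them lymphatic endothelial-like cells, at 89.1, 57.1 and 52.6 CPM. Dnajb14, a J-domain protein of the endoplasmic reticulum membrane, was at 87.7, 114.6 and 73.1 CPM in macrophage-like cells.

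In class C, Dnajc6 and Dnajc13 were each weighted to 1 class. Dnajc6 encodes auxilin, which recruits Hsc70 to strip clathrin from vesicles and is best known from neurons. It was at 304.5 CPM in WT, 267.8 in the Myh6-R404Q library and 299.5 in the Prkag2-p.R299Q library in mesothelial-like cells, and at most 5.62 CPM in any library of the 6 classes other than mesothelial-like and pericyte-like cells. In pericyte-like cells Dnajc6 was at 34.5, 108.2 and 42 CPM, so that Myh6-R404Q was 3.14 times WT (2.11 to 4.76). With doublets removed at the expected rate its log2 ratio was 1.03, against 1.62. Its mesothelial-like level lay within 1.5-fold in both mutants, and mesothelial-like cells were 5.35%, 13% and 8.47% of kept cells. The part of mesothelial transcripts in the pericyte-like value was not tested. Dnajc13, an endosomal J-domain protein, was highest in macrophage-like cells, at 338.6, 415.1 and 346.6 CPM, 2.63 times the mean of the next class. Dnajc1, an endoplasmic reticulum protein, had log2 ratios between -0.18 and 0.07 in both mutants. Dnajc7, a cytosolic partner of Hsp70 and Hsp90, was at 127.4, 132.1 and 131.4 CPM in fibroblast-like cells.

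**Figure D4:**
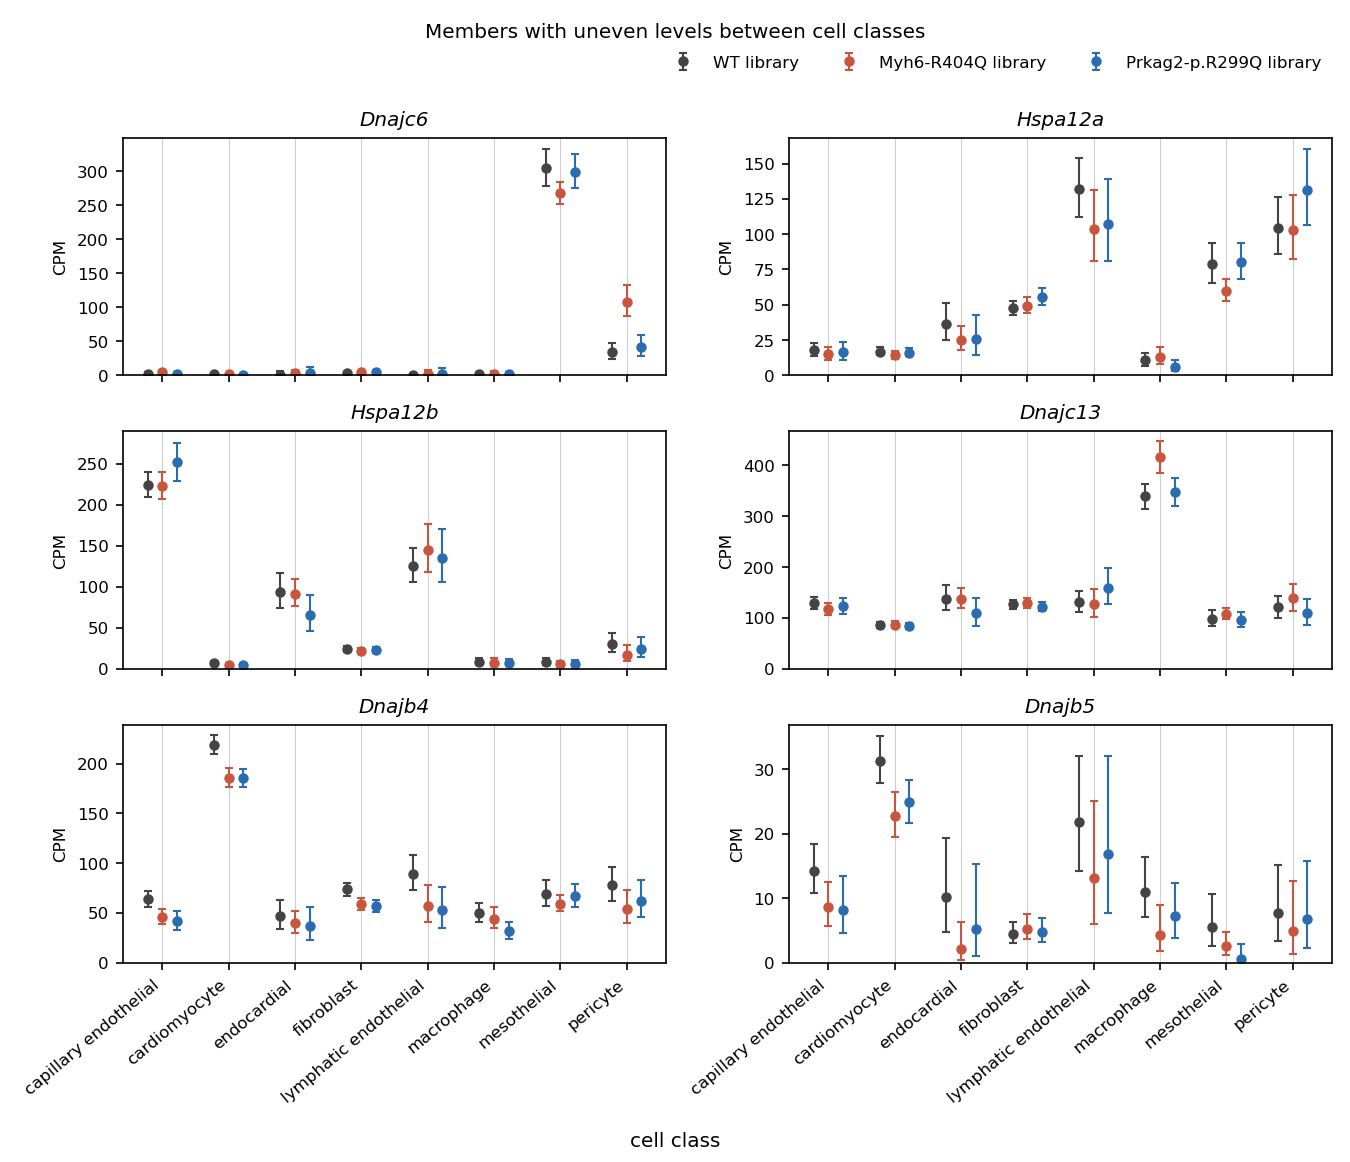
Points give CPM (vertical axis, from 0) of 6 genes in each cell class (horizontal axis) in the WT (grey), Myh6-R404Q (red) and Prkag2-p.R299Q (blue) libraries, with exact 95% Poisson intervals. Dnajc6 is close to 0 except in mesothelial-like and pericyte-like cells, Dnajc13 is highest in macrophage-like cells over a level of at least 85.4 CPM on average in the other classes, and Dnajb4 is highest in cardiomyocyte-like cells.

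A pair of atypical Hsp70 genes were weighted to vessel cells and overlapped in lymphatic endothelial-like cells. Hspa12b, known from endothelium, was at 224.6 CPM in WT, 223.2 in the Myh6-R404Q library and 252 in the Prkag2-p.R299Q library in capillary and general endothelial-like cells, at 125.3, 145 and 135.3 CPM in lymphatic endothelial-like cells and at 7.71, 5.21 and 4.58 CPM in cardiomyocyte-like cells. Its relative Hspa12a was at 132, 104 and 107.1 CPM in lymphatic endothelial-like cells and at 104.4, 103.3 and 131.5 CPM in pericyte-like cells, 2 classes that did not differ beyond their spread. The only pair of either gene past 1.5-fold was Hspa12b in pericyte-like cells of Myh6-R404Q, at 30.7, 17.2 and 24.4 CPM, with a ratio of 0.561 (0.277 to 1.08) whose interval includes 1.

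Comparing the mutants with each other gave 19 lower and 15 higher of 345 pairs in Prkag2-p.R299Q against Myh6-R404Q (5.51% lower), where 5.52% of the pairs of all genes were lower and 3.57% higher. The median log2 ratio was -0.05 for members and -0.03 for all genes. The Hsp110 group supplied 5 of the higher pairs and the small heat shock proteins 5 of the lower. Hsph1 in macrophage-like cells was 3.79 times as high in Prkag2-p.R299Q as in Myh6-R404Q (2.58 to 5.72) and Dnaja1 2.2 times (1.82 to 2.66). Hspb6 in fibroblast-like cells was 0.647 times (0.486 to 0.858). The share of lower members in this comparison was that of the background.

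Genes that work with the members were read from lists of the wider pathway. Of 196 pairs of heat shock factors and co-chaperones with classes, 39 were lower and 3 higher in Myh6-R404Q, and 22 lower and 3 higher in Prkag2-p.R299Q, where 4.91% and 5.89% of the pairs of all genes were lower. Serpinh1, the collagen chaperone Hsp47, was lower in 8 of 8 classes of the Myh6-R404Q library and 3 of the Prkag2-p.R299Q library, and in fibroblast-like cells was at 162.5 CPM in WT, 84.5 in the Myh6-R404Q library and 131 in the Prkag2-p.R299Q library. In lymphatic endothelial-like cells Serpinh1 was at 104.2, 44.0 and 58.2 CPM. Stip1, which bridges Hsp70 and Hsp90, was lower in 7 and 0 classes, and Chordc1, an Hsp90 partner, in 7 and 1. Chordc1 in macrophage-like cells was at 168.1, 78.7 and 148.9 CPM, with the low value again in Myh6-R404Q. Hsf1 itself was within 1.5-fold in all 8 classes of the Myh6-R404Q library and past it in 1 class of the Prkag2-p.R299Q library, where it was higher, and in fibroblast-like cells was at 37.7, 39.4 and 37.1 CPM. Bag3 stayed within 1.5-fold in both mutants in all 8 classes, at 247.9, 234.4 and 213.7 CPM in cardiomyocyte-like cells. Cryab, the alpha B crystallin, was at 212.2, 305.9 and 248.6 CPM there. The 8 genes of the cytosolic chaperonin CCT gave 0 and 1 lower of 64 pairs. The unfolded protein response list gave 4 and 8 lower of 111, near the 4.91% and 5.89% of pairs of all genes, and its member Hyou1 was under the filter in every class.

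Immediate early genes, which respond to tissue handling, also differed between libraries. Of 89 pairs of these genes and classes, 19 were lower and 2 higher in Myh6-R404Q, and 23 lower and 2 higher in Prkag2-p.R299Q. Among pairs of all genes 4.91% and 5.89% were lower in these libraries, and 5.62% and 4.71% higher. Up to 2 of the 20 genes were at 0 in a class and library. Their summed level was 0.716 to 1.12 times WT in the Myh6-R404Q library and 0.703 to 1.16 times in the Prkag2-p.R299Q library, and in fibroblast-like cells was 880, 652.5 and 618.6 CPM. Egr1 in fibroblast-like cells was at 103.7, 39.3 and 32 CPM, and Junb at 110.3, 46.6 and 44.9 CPM. These genes were named for their size and do not stand for the list. Egr1 was higher in 1 class of Myh6-R404Q and Junb in 1 class of Prkag2-p.R299Q. Jun, Klf2 and Klf6 stayed within 1.5-fold of WT in all 8 classes of both mutants. Mitochondrial transcripts were 0.721 to 0.972 times WT in the Myh6-R404Q library and 0.687 to 0.817 times in the Prkag2-p.R299Q library over the 8 classes. The part of tissue handling in the lower levels of Hsph1, Hsp90aa1, Hspa1a, Hspa1b and Dnaja1 was not tested, and with 1 library per genotype it cannot be told apart from genotype.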

How the data were processed

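Barcodes, genes and UMI counts were deposited by the authors as matrices of raw counts, made with Cell Ranger 7.0.1 on mm10, per the submitters' processing notes. Other settings, strand included, are unstated in the sources used here. In the Myh6-R404Q matrix, barcodes of suffix 1 and 2 equalled the Prkag2-p.R299Q and WT matrices with 0 entries that differed, and the rest were used. Barcodes needed 500 UMIs, 300 genes and at most 20% mitochondrial UMIs. Scrublet (scanpy 1.11.5) removed 3182 WT, 2163 Myh6-R404Q and 1112 Prkag2-p.R299Q doublets, or 17.65%, 17.08% and 13.99%, where 14.43%, 10.13% and 6.36% were expected. Without the member genes, 2000 variable genes gave 30 components, clustered with leidenalg 0.10.2 at resolution 0.8, and clusters were named from marker lists. Free RNA was not removed.

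UMIs were summed per class and library (totals of 532241 to 9343983) and expressed as CPM. Folds have exact conditional binomial intervals and CPM exact Poisson intervals at 95%, which cover counting error only; UMIs of 1 library are not biological replicates. The calculation was run on counts simulated from the WT profile with Poisson error only. That checks the arithmetic and cannot show error between animals or libraries. Named were 20 preset genes, the 3 with the highest mean CPM in each role group, and genes past 2-fold at 50 CPM whose higher value reached 0.2 of that in their highest class; the other genes named were chosen after their values were seen. Members and lists were chosen with earlier results of these data known. Gene positions are from GENCODE on mm10.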

Additional observations from a re-analysis of the deposited data

Results flagged for a closer look

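For 5 members the ratio between libraries was past 1.5-fold in opposite directions in a pair of cell classes. With 1 library per genotype the difference between classes was not tested in any of them. The share of all genes with such opposite ratios was not counted. In endocardial-like cells of Prkag2-p.R299Q 9.77% of all genes were past 1.5-fold below WT and 8.04% above it. The log2 ratio of Hspb1 in Prkag2-p.R299Q against WT was 0.80 in mesothelial-like cells and -1.21 in endocardial-like cells. That of Dnajc18, a J-domain gene of class C, in the same comparison was 0.64 in macrophage-like cells and -1.19 in endocardial-like cells. The other 3 concern Prkag2-p.R299Q against Myh6-R404Q. Hspb8 was at a log2 ratio of 0.62 in mesothelial-like and -0.68 in macrophage-like cells, Dnajc21 at 0.81 in pericyte-like and -0.92 in lymphatic endothelial-like cells, and Hspbap1 at 0.68 in endocardial-like and -0.99 in lymphatic endothelial-like cells.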

How the results depend on the processing

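No paired analysis was possible because each genotype had 1 library and the labels give no replicate numbers. In 18 alternatives, of which leaving out the capillary and cardiomyocyte-like classes was chosen after seeing the data, the 9 counts and medians gave 162 values, 135 of them close to the reported ones. Using the Myh6-R404Q matrix as deposited, which mixes in the other libraries, gave 10 lower and 2 higher pairs for Myh6-R404Q against WT, and 12 lower, 1 higher and a median of -0.09 for Prkag2-p.R299Q against Myh6-R404Q. In the order Myh6-R404Q against WT, Prkag2-p.R299Q against WT and Prkag2-p.R299Q against Myh6-R404Q, a mean of at least 50 CPM gave 29, 36 and 7 lower and 2, 2 and 6 higher pairs of 210, and no filter gave 99, 108 and 60 lower and 38, 36 and 61 higher of 583. Cells thinned to 1000 UMIs, with those under 1000 UMIs left out, gave 20, 17 and 28 higher pairs and 37 lower ones in the last comparison. A mean of at least 10 CPM gave 14 higher pairs in the first and 24 in the last. With no doublets removed, 1 and 5 pairs were higher in the first and the second, a pseudocount of 5 CPM gave 5 higher in the second, and doublets removed at the expected rate gave 12 lower in the last. The cause was not tested beyond the number of pairs left. Of 4718 values of single genes under alternatives, 4607 stayed within their counting interval, 111 moved outside it, and 0 that were past 1.5-fold changed sign. The 99 single ratios to WT past 1.5-fold gave 1764 values under alternatives, of which 101 came within 1.5-fold, most often in the mixed matrix and with thinned cells. Alternatives that altered only the CPM filter or the set of classes could not move a single ratio. Their values are among the 4718 and the 1764, so these counts overstate how stable single ratios were. Hsph1 in macrophage-like cells of Myh6-R404Q ranged from -2.31 to -0.50 on the log2 scale, the latter in the mixed matrix, and Dnajc6 in pericyte-like cells from 0.78 to 1.79. Depth limits endocardial-like, lymphatic endothelial-like and pericyte-like cells most.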
